A study of Mus musculus with 12 samples.

Results

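The bone morphogenetic protein (BMP) pathway was followed here through 10 genes: the type I receptor Bmpr1a, the type II receptor Bmpr2, the co-receptor Eng (endoglin), the signal transducers Smad1 and Smad5, the inhibitory Smad7, the target genes Id1, Id2 and Id3, and the secreted factor Gdf15. The genes were taken by name, with earlier results of these data known. Each was read from an array feature annotated to it alone, the brightest where a gene had several. Of the 10 genes, 9 had such a feature and 8 were bright enough to be tested, out of 30710 genes with a feature and 20133 tested on the array. The annotation names no feature for Gdf15, so it has no value here.

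The RNA came from splenic erythroblasts of male mice, sorted 3 days after phenylhydrazine, which lyses circulating red cells. Before the drug, mice had eaten a selenium-deficient or a selenium-adequate diet for 3 months. Each diet gave basophilic erythroblasts and the less mature proerythroblasts, which made 4 groups of 3 arrays: deficient basophilic, adequate basophilic, deficient proerythroblast and adequate proerythroblast. All 4 groups had received phenylhydrazine, so no group shows unstressed spleen. Strain, drug dose and sorting gates are not given in the sources used here, nor whether replicates were separate mice, so p-values measure only the spread between these arrays, which may be technical.

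BMP ligands bind pairs of type I and type II receptors, which phosphorylate SMAD1 and SMAD5; these enter the nucleus with SMAD4 and switch on genes such as the Id genes, whose proteins block helix-loop-helix transcription factors. In mouse spleen, BMP4 is known to drive the expansion of stress erythroid progenitors during recovery from anaemia, together with stem cell factor, hedgehog and hypoxia signals. Endoglin, also called CD105, is a co-receptor known from endothelium and also carried by early erythroid cells.

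The promoters of the 4 genes that passed a test by diet, or by stage on both diets, are shown because their transcripts carry the differences described below. Each is the 250 bases before the RefSeq start on GRCm38.p6, 5′ to 3′ on the gene's strand. Capitals mark GGCGCC, a GC-rich letter pattern found in BMP response elements, and GATAA, the core bound by GATA factors, on either strand. Of the 3 starts listed for Smad5, the window printed was chosen because it held GATAA.
Eng: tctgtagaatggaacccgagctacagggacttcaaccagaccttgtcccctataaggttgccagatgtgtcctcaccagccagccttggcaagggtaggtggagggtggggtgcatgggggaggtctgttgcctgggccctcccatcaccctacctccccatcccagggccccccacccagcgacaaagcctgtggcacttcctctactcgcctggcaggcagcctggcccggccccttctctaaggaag
Bmpr2: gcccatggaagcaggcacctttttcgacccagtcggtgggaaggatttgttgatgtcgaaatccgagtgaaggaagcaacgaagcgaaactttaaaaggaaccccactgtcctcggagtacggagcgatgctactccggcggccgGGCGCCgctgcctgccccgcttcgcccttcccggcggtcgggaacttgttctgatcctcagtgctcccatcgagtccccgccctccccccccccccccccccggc
Smad5: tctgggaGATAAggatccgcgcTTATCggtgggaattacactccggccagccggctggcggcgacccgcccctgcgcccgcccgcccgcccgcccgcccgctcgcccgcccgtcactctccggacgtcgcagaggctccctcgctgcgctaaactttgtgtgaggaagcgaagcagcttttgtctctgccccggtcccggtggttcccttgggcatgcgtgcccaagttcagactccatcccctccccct
Id3: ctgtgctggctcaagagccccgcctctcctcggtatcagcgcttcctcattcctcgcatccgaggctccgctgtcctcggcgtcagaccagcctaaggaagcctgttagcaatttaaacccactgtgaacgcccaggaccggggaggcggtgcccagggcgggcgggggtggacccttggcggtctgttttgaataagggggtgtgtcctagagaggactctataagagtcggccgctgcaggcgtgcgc
The windows are chr2:32646345-32646594 (plus strand) for Eng, chr1:59764029-59764278 (plus strand) for Bmpr2, chr13:56703418-56703667 (plus strand) for Smad5 and chr4:136143572-136143821 (plus strand) for Id3. The RefSeq promoter table held 8 of the 10 genes. Bmpr2 had GGCGCC with its first base 105 before the start, Smad5 had GATAA at 243 and 228 bases before the start, and the Eng and Id3 windows had neither pattern. The other 2 Smad5 windows, which overlap each other, had no GATAA, and 1 of them had GGCGCC at 19 bases before the start. Among 32851 mouse promoter windows of the same length, 9.59% held GGCGCC and 22.6% held GATAA. The short patterns GTCT and CANNTG, also searched on both strands, were in 82.9% and 66.2% of them. A longer pattern of 15 letters, which joins a GC-rich part to the first of these short patterns, was also searched. It was in 0.192% of the mouse promoter windows and had 0 matches in every window of the 8 genes held. All matches given here describe letters only.

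The arrays carried an erythroid signal in all groups. The mean log2 level of 10 measured erythroid genes (such as Gata1, Klf1 and Alas2) ranged from 10.9 to 11.3 in deficient basophilic, 11.2 to 11.5 in adequate basophilic, 10.5 to 10.8 in deficient proerythroblast and 9.87 to 10.2 in adequate proerythroblast arrays. Replicate 2 of both basophilic groups stood apart: the median of 23 background control features was 4.70 in deficient and 4.19 in adequate basophilic replicate 2, against 3.31 to 3.80 in the other 10 arrays. For deficient basophilic replicate 3 the description says proerythroblasts, while title and cell type say basophilic, and it was kept as basophilic. Its erythroid mean was 11.3, and its mean for early erythroid genes (such as Kit and Myb) was 6.05. In deficient proerythroblast arrays these means were 10.5 to 10.8 and 6.68 to 6.85. Deviations of same-numbered diet pairs were positively correlated within each stage (r 0.18 to 0.782), so values with the replicate number as a block are given where they change a call. For same-numbered arrays of the 2 stages r was -0.165 to 0.254, a range that overlaps the first.

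Eng was the member with a diet difference past the threshold. Its log2 level was 7.22, 7.18 and 7.00 in deficient proerythroblasts, against 9.02, 9.09 and 8.40 in adequate proerythroblasts. All 3 deficient arrays lay below all 3 adequate arrays. Eng was lower by diet in proerythroblasts, with a log2 change of -1.70 (SE 0.19, 95% interval -2.11 to -1.29), a 3.26-fold difference with a limma adjusted p of 8.56e-04. It was the only gene of the 8 to pass, and the only one whose arrays did not overlap. Over all 20133 genes 4.02% passed this comparison and 2.76% passed as lower, while 31.1% had arrays that did not overlap, 15.6% with the deficient arrays below. In bulk arrays, fewer cells with a transcript and less of it per cell cannot be told apart.

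In basophilic erythroblasts Eng was 6.62, 6.90 and 6.47 on the deficient diet, against 6.65, 6.60 and 6.86 on the adequate diet. These arrays overlapped, and the diet difference of -0.04 (95% interval -0.45 to 0.37) did not pass. The diet by stage interaction (basophilic diet change minus proerythroblast diet change) was 1.66 for Eng (SE 0.27, 95% interval 1.08 to 2.24, limma adjusted p = 0.0363). Of all genes 0.303% passed it, 0.159% with a positive sign. That call was near the threshold. It was lost under quantile normalization (1.61, adjusted p = 0.0589). Leaving out 1 array left it past the threshold without adequate proerythroblast replicate 3, deficient basophilic replicate 2 or deficient basophilic replicate 3. It was lost without any of the other 9 arrays, where the estimate was 1.54 to 1.74 and adjusted p was 0.0772 to 0.143.

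With maturation Eng fell on the adequate diet, to 6.70 ± 0.14 in basophilic erythroblasts, against 8.84 ± 0.38 in proerythroblasts (SD, n = 3 each). The log2 change was -2.13 (SE 0.19), a 4.39-fold difference with adjusted p = 8.7e-06. On the deficient diet the means were 6.66 ± 0.22 in basophilic erythroblasts and 7.13 ± 0.12 in proerythroblasts. There all 3 basophilic arrays were again below all 3 proerythroblast arrays, but the change of -0.47 (95% interval -0.88 to -0.06) was at the threshold with adjusted p = 0.0503. It passed in 7 of 23 alternatives: median centring (-0.66, adjusted p = 0.0187), the replicate block over all groups and within each stage (-0.47, adjusted p = 0.0377 and 0.0193), array weights (-0.54, adjusted p = 0.043), and without deficient basophilic replicate 2 (-0.59, adjusted p = 0.0308), without replicate 2 of both basophilic groups (-0.59, adjusted p = 0.0249) or without adequate proerythroblast replicate 3 (-0.47, adjusted p = 0.0264).

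Because Eng is also an endothelial gene, endothelial markers were read beside it. In proerythroblasts 0 of 11 tested endothelial genes passed by diet in limma, where 4.02% of all genes passed. Their log2 changes ran from -0.58 to 0.18 (median 0.05), and 1 passed as lower without replicate 2 of both basophilic groups. The mean level of the list was 5.40 to 5.44 in deficient and 5.37 to 5.48 in adequate arrays. Kdr, Tek and Emcn, which define endothelium, were too dim to test. Genes of early erythroid cells did move with Eng: 4 of 5 tested (such as Kit and Myb) passed as lower on the deficient diet, where 2.76% of all genes did. The list was chosen with earlier results of these data known, so this count is descriptive. The mean level of that list was 6.68 to 6.85 in deficient and 7.74 to 7.88 in adequate proerythroblasts. Of 10 tested erythroid genes 5 passed as higher in deficient proerythroblasts (median log2 change 0.80), where 255 of all 20133 genes did. The part of a shift in cell maturity in the Eng difference was not tested.

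**Figure D1:**
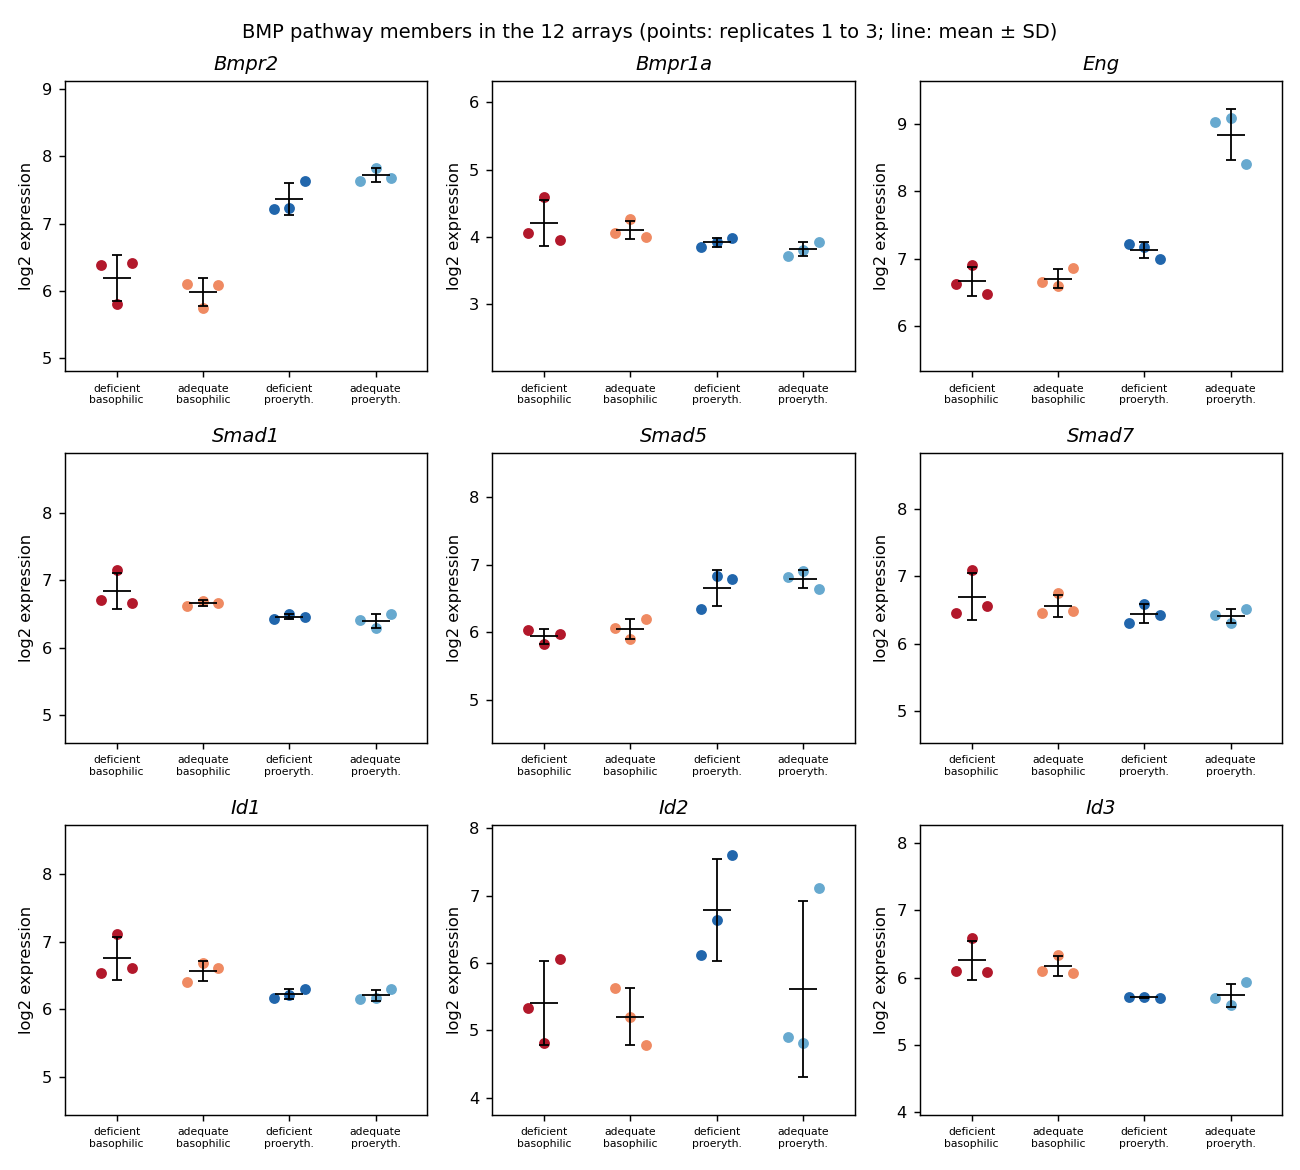
Log2 expression (vertical axis) of the BMP pathway members in the 12 arrays, in panels by gene, with deficient basophilic, adequate basophilic, deficient proerythroblast and adequate proerythroblast groups from left to right. Points are replicates 1 to 3 and lines are mean ± SD. The adequate proerythroblast arrays of Eng, at 8.40 to 9.09, lie above all other arrays.

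The genes most like Eng across the 12 arrays were Itga5 (Pearson r 0.997), which encodes the alpha 5 chain of the fibronectin receptor, Scml2 (0.994), a Polycomb group gene, and Nqo2 (0.991), a quinone reductase. These r values rank genes and are descriptive, since the arrays fall into the 4 groups. Itga5 was 7.27, 7.31 and 7.05 in deficient proerythroblasts, against 9.16, 9.21 and 8.73 in adequate proerythroblasts. Its deficient minus adequate difference there was -1.82, and that of Scml2 and Nqo2 was -0.92 and -0.99. As these genes were picked for their likeness to Eng on the same arrays, their differences are a description with no test.

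**Figure D2:**
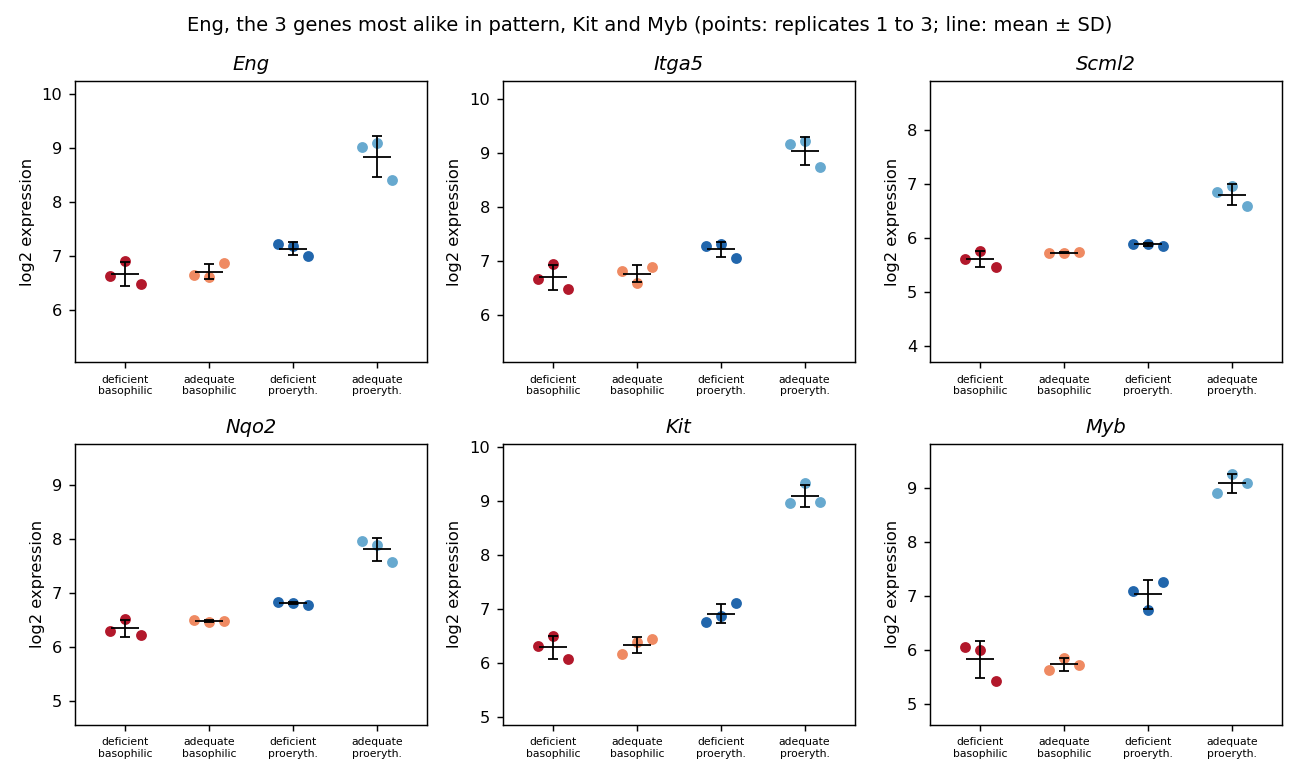
Log2 expression (vertical axis) of Eng, of Itga5, Scml2 and Nqo2, the genes most alike in pattern, and of Kit and Myb, in the 4 groups of 3 arrays. Points are replicates and lines are mean ± SD. In each panel the adequate proerythroblast arrays stand highest, as with Kit at 8.97 to 9.34 against 6.76 to 7.12 in deficient proerythroblasts.

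Bmpr2, the type II receptor, followed stage more than diet. It was 6.38, 5.80 and 6.41 in deficient basophilic and 6.11, 5.75 and 6.09 in adequate basophilic erythroblasts. The proerythroblast levels were 7.22, 7.23 and 7.63 on the deficient and 7.63, 7.83 and 7.68 on the adequate diet. Every basophilic array lay below every proerythroblast array. The stage change was -1.16 (SE 0.19, adjusted p = 0.00152) on the deficient diet and -1.73 (SE 0.19, adjusted p = 3.3e-05) on the adequate diet, or 2.24-fold and 3.32-fold. The diet difference in proerythroblasts, -0.35 (95% interval -0.76 to 0.06), did not pass (adjusted p = 0.473), nor did the interaction of 0.57 (95% interval -0.01 to 1.15, adjusted p = 0.571). The genes most like Bmpr2 across arrays were Tmem245 (r 0.992), Naa20 (0.991), a subunit of an N-terminal acetyltransferase, and Sec31a (0.987), a COPII coat gene.

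Bmpr1a, the type I receptor, had a feature in the dim range of the array and was not tested. Its 12 values ran between 3.72 and 4.60, and 0 of the 12 arrays exceeded the filter value of 5.30, the median of all values. Its mean was 4.21 in deficient basophilic, 4.11 in adequate basophilic, 3.92 in deficient proerythroblast and 3.82 in adequate proerythroblast arrays. The deficient minus adequate difference was 0.10 in both stages.

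Smad5, a receptor-activated SMAD, moved with Bmpr2. Its levels were 6.03, 5.82 and 5.97 in deficient basophilic and 6.06, 5.90 and 6.19 in adequate basophilic erythroblasts. In proerythroblasts they were 6.35, 6.84 and 6.79 on the deficient and 6.82, 6.91 and 6.64 on the adequate diet. The stages did not overlap on either diet. Smad5 fell with maturation by 0.72 on the log2 scale on the deficient diet (SE 0.15, adjusted p = 0.0063) and by 0.74 on the adequate diet (SE 0.15, adjusted p = 0.0031), or 1.65-fold and 1.67-fold. Its diet difference in proerythroblasts was -0.13 and did not pass (adjusted p = 0.948). The genes most like it were Ostm1 (r 0.970), Top3a (0.965), a DNA topoisomerase, and Rest (0.963), a transcriptional repressor.

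Smad1, the other receptor-activated SMAD on the list, ran the other way. It was 6.71, 7.15 and 6.67 in deficient basophilic erythroblasts, against 6.43, 6.50 and 6.45 in deficient proerythroblasts. Adequate basophilic erythroblasts had 6.62, 6.70 and 6.67, against 6.41, 6.29 and 6.50 in adequate proerythroblasts. The arrays of the stages did not overlap on either diet, yet the changes were small. Smad1 rose by 0.38 on the deficient diet (SE 0.14, 1.30-fold, adjusted p = 0.036), while 0.26 on the adequate diet did not pass (adjusted p = 0.12). The adequate change passed without deficient basophilic replicate 2 (0.26, adjusted p = 0.0171), without replicate 2 of both basophilic groups (0.25, adjusted p = 0.022) and with array weights (0.26, adjusted p = 0.03). The interaction of Smad1 did not pass (adjusted p = 0.999). The deficient call was lost in 9 of 23 alternatives: under median centring (0.19, adjusted p = 0.138), with array weights (0.24, adjusted p = 0.0525), in a fit of its own 6 arrays (0.38, adjusted p = 0.12), without deficient basophilic replicate 2 (0.23, adjusted p = 0.0715), without adequate basophilic replicate 3 or adequate proerythroblast replicate 1 (0.38 each, adjusted p = 0.0517 and 0.0515), and without deficient proerythroblast replicate 1, 2 or 3 (0.37, 0.40 and 0.38, adjusted p = 0.0885, 0.0634 and 0.0898).

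Smad7, the feedback inhibitor that blocks receptor signalling, passed in no comparison. It was 6.45, 7.09 and 6.55 in deficient basophilic and 6.45, 6.75 and 6.49 in adequate basophilic erythroblasts. In proerythroblasts it was 6.31, 6.59 and 6.43 on the deficient and 6.42, 6.30 and 6.51 on the adequate diet, and the groups overlapped. Its stage changes were 0.25 on the deficient diet (adjusted p = 0.216) and 0.15 on the adequate diet (adjusted p = 0.454), and the adequate one was of opposite sign under median centring (-0.057).

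The Id genes are direct targets of BMP signalling; Id1 and Id3 rose with maturation on the deficient diet, and Id2 passed neither by diet nor by stage in the fit without a block. Id1 was 6.53, 7.12 and 6.61 in deficient basophilic erythroblasts, against 6.16, 6.21 and 6.30 in deficient proerythroblasts. On the adequate diet it was 6.40, 6.69 and 6.61 in basophilic erythroblasts, against 6.15, 6.17 and 6.30 in proerythroblasts. Basophilic arrays were higher throughout on each diet. Id1 rose on the deficient diet by 0.53 (SE 0.16, 1.44-fold, adjusted p = 0.0192), a call lost without deficient proerythroblast replicate 1 (0.50, adjusted p = 0.0568) and in a fit of those 6 arrays alone (adjusted p = 0.0762). The adequate change of 0.36 missed the threshold (adjusted p = 0.0711) but passed in 5 of 22 alternatives: without deficient basophilic replicate 2 (0.36, adjusted p = 0.00797), without replicate 2 of both basophilic groups (0.30, adjusted p = 0.0168), with the replicate block within each stage (0.36, adjusted p = 0.0168), with array weights (0.27, adjusted p = 0.0321) and in a fit of its own 6 arrays (0.36, adjusted p = 0.0291).

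Id3 was 6.10, 6.59 and 6.08 in deficient basophilic erythroblasts, against 5.71, 5.71 and 5.70 in deficient proerythroblasts. On the adequate diet it was 6.10, 6.34 and 6.07 in basophilic erythroblasts, against 5.69, 5.59 and 5.93 in proerythroblasts. The stages did not overlap on either diet. Id3 rose by 0.55 (SE 0.16, 1.46-fold, adjusted p = 0.0173) on the deficient diet and by 0.43 (SE 0.16, 1.35-fold, adjusted p = 0.0381) on the adequate diet. The deficient call was lost without deficient proerythroblast replicate 3 (0.55, adjusted p = 0.0533) and in a fit of those 6 arrays alone (adjusted p = 0.0678). The adequate call was lost under quantile normalization (0.30, adjusted p = 0.141) and median centring (0.22, adjusted p = 0.145). It was also lost without adequate basophilic replicate 1, 2 or 3 (0.47, 0.35 and 0.48), adequate proerythroblast replicate 1 or 2 (0.41 and 0.36), or any of the 3 deficient proerythroblast arrays (0.43), with adjusted p between 0.0501 and 0.134.

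Id1, Id3, Smad1, Smad7 and Bmpr1a shared a pattern with the array background in the basophilic groups but not in proerythroblasts. In adequate proerythroblasts the background was highest in replicate 1 (3.53), while these genes were highest in replicate 3. In deficient proerythroblasts replicate 2 had the lowest background (3.31) but the highest Smad1 and Smad7. There Id1 and Bmpr1a were highest in replicate 3 (background 3.45), and Id3 was nearly level (5.70 to 5.71). In each basophilic group, replicate 2 was highest for all of these genes, and it also had the highest background median: 4.70 against 3.73 and 3.75 in the deficient group, and 4.19 against 3.63 and 3.80 in the adequate group. Stroma markers were higher in basophilic erythroblasts too: 5 of 6 tested genes passed on each diet, where 31.1% and 28.7% of all genes passed as higher on the deficient and adequate diets, with mean levels of 5.48 to 6.10 in deficient basophilic and 5.48 to 5.72 in adequate basophilic arrays, against 5.17 to 5.22 in deficient and 5.11 to 5.19 in adequate proerythroblast arrays; Dcn and Lum were too dim to test. Of the endothelial genes, 10 of 11 were higher with maturation on the deficient and 7 of 11 on the adequate diet. With replicate 2 of both basophilic groups left out, Id1 rose by 0.35 and Id3 by 0.38 on the deficient diet (adjusted p = 0.0109 and 0.00942), and by 0.30 and 0.35 on the adequate diet (adjusted p = 0.0168 and 0.0113). In the basophilic arrays that were left, the background median was still 3.63 to 3.80, against 3.31 to 3.53 in the proerythroblast arrays. Over all arrays the dim Bmpr1a was also 0.29 higher in basophilic erythroblasts on each diet, with no test. The part of background and of other cells in these rises was not tested.

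**Figure D3:**
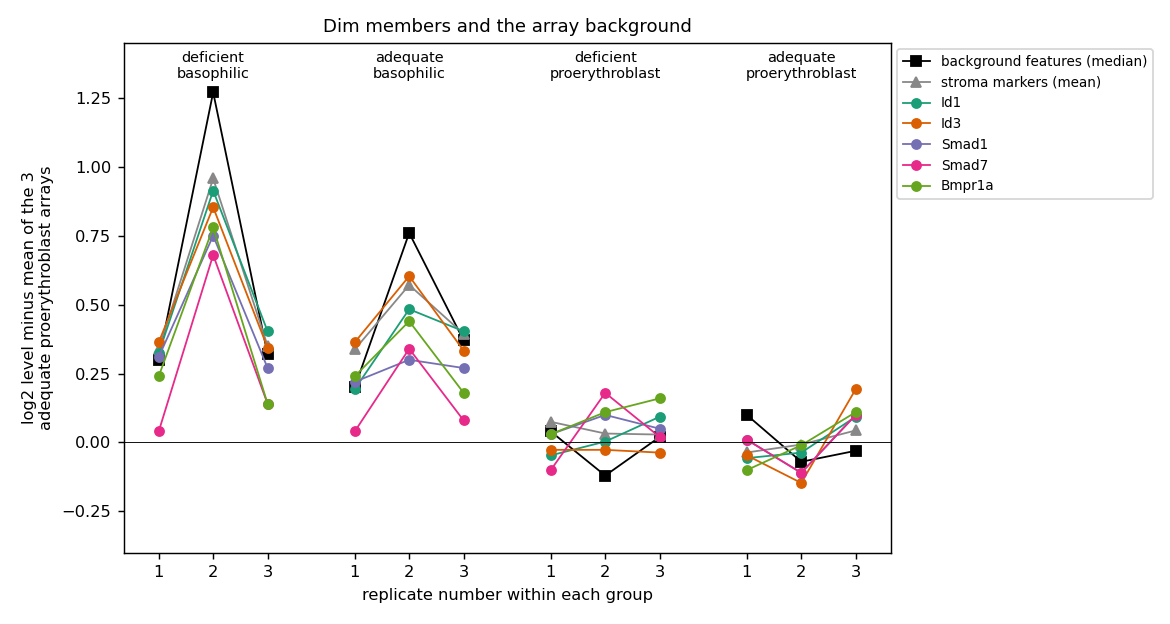
Log2 level minus the mean of the 3 adequate proerythroblast arrays (vertical axis) for 5 members, the median of 23 background features and the mean of the stroma markers, by replicate number within each group (horizontal axis). Each point is 1 array. Replicate 2 of both basophilic groups is the highest of its group in all the lines.

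Id2 varied most between replicates. It was 6.12, 6.64 and 7.60 in deficient proerythroblasts, against 4.91, 4.81 and 7.12 in adequate proerythroblasts. Adequate replicate 3 lay far above its 2 partners and inside the deficient range. The diet difference of 1.17 (SE 0.58, 95% interval -0.09 to 2.44) did not pass (adjusted p = 0.414). It passed with array weights (2.12, adjusted p = 0.00143), where 8010 of 20133 genes passed, against 810 as deposited. It also passed with the replicate number as a block within each stage (1.17, adjusted p = 0.0494) and without adequate proerythroblast replicate 3 (1.93, adjusted p = 0.0441). That replicate also had the highest marker means of its group: 6.62 against 5.65 and 5.48 for macrophage, 7.95 against 6.78 and 7.08 for B cell, 6.20 against 5.34 and 5.36 for T and NK cell, and 7.94 against 7.19 and 6.70 for neutrophil genes. Its endothelial, megakaryocyte, stroma and early erythroid means were the highest of the group too, and its erythroid mean was the lowest. In deficient proerythroblasts the macrophage mean was likewise highest in replicate 3, at 6.45 against 5.92 and 5.70. From replicate 1 to replicate 2 there, however, it fell while Id2 rose. In deficient basophilic arrays Id2 was highest in replicate 3 (6.06), where the macrophage mean was lowest, at 5.91 against 6.38 and 6.40. The part of such cells in the Id2 level was not tested.

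In basophilic erythroblasts Id2 was 5.33, 4.82 and 6.06 on the deficient and 5.63, 5.20 and 4.79 on the adequate diet. With maturation Id2 was lower on the deficient diet in every array, but the change of -1.38 did not pass (adjusted p = 0.0582); it passed with the replicate block over all groups and within each stage (-1.38, adjusted p = 0.0265 and 0.00447), without adequate proerythroblast replicate 3 (-1.38, adjusted p = 0.0209) and without deficient basophilic replicate 3 (-1.71, adjusted p = 0.0375). On the adequate diet the stage change was -0.41 (adjusted p = 0.555), of opposite sign with array weights (0.22) and without adequate proerythroblast replicate 3 (0.35).

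By diet, then, 1 of the 8 tested members passed in proerythroblasts and 0 of 8 in basophilic erythroblasts, where limma called 0.0199% of all genes, 4 in number, at the adjusted threshold. The arrays of the diets overlapped for all 8 members there, against 8.04% of all genes with no overlap. At an unadjusted p under 0.05 the basophilic comparison had 1305 genes and 0 members. Of the members that did not pass in proerythroblasts, the 6 other than Id2 had estimates between -0.35 and 0.06, with 95% bounds between -0.76 and 0.41. In basophilic erythroblasts the 7 other than Id2 had bounds between -0.45 and 0.62. Differences of that size are not excluded by these arrays. The members' median diet change was -0.01 in proerythroblasts, against 0.02 over all genes, and 0.16 in basophilic erythroblasts, against 0.04 over all genes.

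By stage, 5 of 8 members passed on the deficient diet, 3 higher and 2 lower, where 56% of all genes passed (31.1% higher and 24.9% lower). On the adequate diet 4 of 8 passed, 1 higher and 3 lower, where 54.2% of all genes passed (28.7% higher and 25.5% lower). These shares are close to the background of each comparison. The arrays of the stages did not overlap for 7 of 8 members on the deficient diet (3 above, 4 below), against 66.5% of all genes (36.9% above, 29.6% below). This held for 6 of 8 on the adequate diet (3 above, 3 below), against 74% of all genes (41.4% above, 32.6% below). Median centring gave all genes a median change of -0.12 on the deficient diet, against 0.08 as deposited, and of -0.09 on the adequate diet, against 0.12 as deposited, and lowered every gene's stage change by the same amount. The share of higher genes among those called on the adequate diet was 52.9%, against 36.3% under quantile normalization and 26.3% under median centring. On the deficient diet it was 55.5%, against 54.5% under quantile normalization and 36.6% under median centring.

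**Figure D4:**
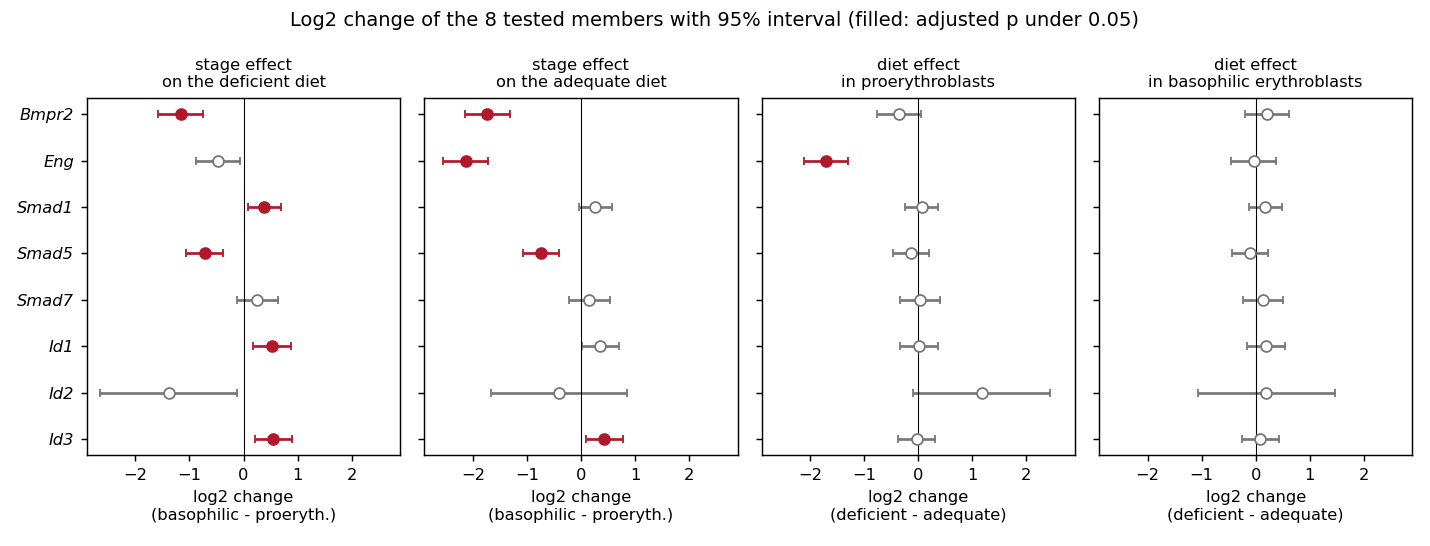
Log2 change (horizontal axis) of the 8 tested members with 95% intervals, in a panel for each diet comparison (deficient minus adequate) and each stage comparison (basophilic minus proerythroblast). Filled points have adjusted p under 0.05. By diet only Eng in proerythroblasts is filled, at -1.70, while Bmpr2 and Smad5 lie left of 0 in both stage panels.

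The rest of the pathway was read from 7 gene lists, with stage changes given as basophilic minus proerythroblast. Of 13 tested ligands of the BMP, activin and TGF-beta family, 6 rose and 1 fell on the deficient diet, and 4 rose and 2 fell on the adequate diet. Their median change was 0.50 and 0.40, against 0.08 and 0.12 over all genes on the deficient and adequate diets. The counts stand beside the 56% and 54.2% of all genes that passed by stage on those diets, as do those of the lists that follow. Without replicate 2 of both basophilic groups, the deficient median was 0.25 for ligands, 0.27 for receptors and co-receptors, 0.09 for inhibitors and 0.33 for hedgehog genes, against 0.50, 0.46, 0.25 and 0.50 with them, and 10 ligands rose on the adequate diet. Gdf3, a growth factor of this family, fell by 0.95 on the deficient diet (adjusted p = 0.00172) and by 1.28 on the adequate diet (adjusted p = 7.65e-05). Inhbb, an activin subunit, rose by 0.79 and Bmp6, a regulator of hepcidin, by 0.65 on the deficient diet. Bmp4, the ligand of splenic stress erythropoiesis, was 5.57, 5.71 and 5.37 in deficient basophilic and 5.58, 5.93 and 5.63 in adequate basophilic erythroblasts, against 5.02, 5.36 and 5.29 in deficient and 5.09, 5.18 and 5.28 in adequate proerythroblasts. These values lie near the filter value of 5.30; Bmp4 rose by 0.53 on the adequate diet (adjusted p = 0.0141). Tgfb1, a growth inhibitor of many blood cells, fell by 0.79 on the adequate diet (adjusted p = 0.038).

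Of 9 tested receptors and co-receptors, 5 rose and 1 fell on the deficient diet, and 4 rose and 2 fell on the adequate diet (medians 0.46 and 0.43). Acvrl1, a type I receptor that partners endoglin in endothelium, rose by 0.69 and 0.48 on the deficient and adequate diets. Tgfbr3, or betaglycan, the co-receptor most related to endoglin, fell by 1.00 on the adequate diet (adjusted p = 4.44e-04). Among the other 5 SMADs, 2 rose and 2 fell on the deficient diet, and 1 rose and 3 fell on the adequate diet (medians -0.24 and -0.39). Smad2, which carries TGF-beta and activin signals, fell by 0.89 on the deficient diet (adjusted p = 0.00441) and by 1.07 on the adequate diet (adjusted p = 6.88e-04). The common partner Smad4 fell by 0.67 and 0.74 on the deficient and adequate diets. Smad6, an inhibitory SMAD, rose by 0.59 and 0.45.

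Of 14 tested inhibitors, 6 rose and 3 fell on the deficient diet, and 5 rose and 2 fell on the adequate diet (medians 0.25 and 0.24). The ubiquitin ligase Nedd4l fell by 0.94 and 0.69, and the BMP-binding Twsg1 by 0.58 on each diet. Of 15 tested partners and targets, 3 rose and 3 fell on the deficient diet, and 3 rose and 4 fell on the adequate diet (medians 0.03 and -0.04). Tcf12 and Tcf4, helix-loop-helix factors of the class that Id proteins block, fell by 1.20 and 0.59 on the deficient diet and by 1.15 and 1.05 on the adequate diet. Of 11 tested hedgehog genes, 7 rose and 2 fell on the deficient diet, and 4 rose and 3 fell on the adequate diet (medians 0.50 and 0.38). Ptch1, the hedgehog receptor, fell to 7.06 ± 0.19 in deficient basophilic erythroblasts, against 7.82 ± 0.14 in deficient proerythroblasts, and to 6.80 ± 0.25 in adequate basophilic erythroblasts, against 8.46 ± 0.20 in adequate proerythroblasts (SD, n = 3 each). In each of these 6 lists 0 genes passed the diet by stage interaction in limma, where 0.303% of all genes did. A stage change named on only 1 diet is therefore not called as different between diets. Leaving out replicate 2 of both basophilic groups gave 1 hedgehog gene in the interaction, where 700 of all genes passed. In each list limma also called 0 genes by diet in either stage, where 4.02% of all genes passed in proerythroblasts. Without replicate 2 of both basophilic groups, which raised the calls over all genes to 3286, the deficient proerythroblasts had 2 lower ligands, 1 lower receptor, 1 lower inhibitor, 1 lower hedgehog gene, and 1 higher and 1 lower gene among partners and targets.

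**Figure D5:**
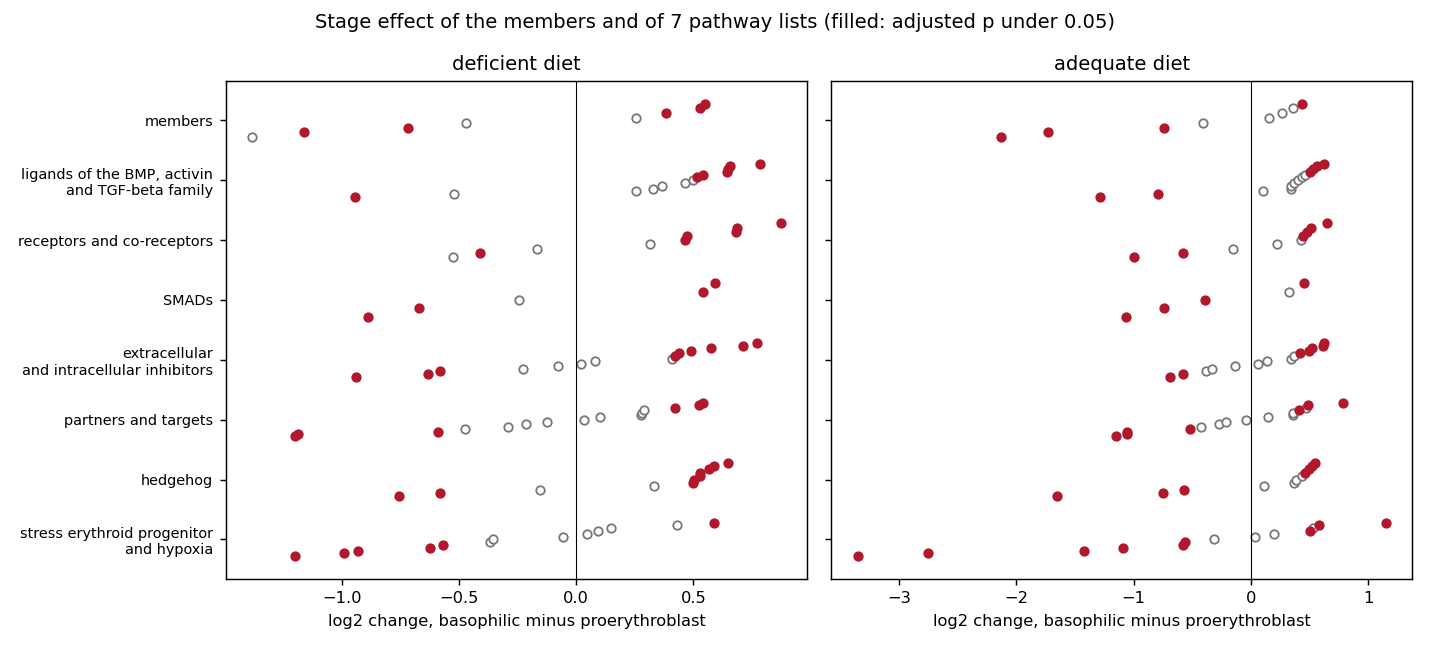
Log2 change, basophilic minus proerythroblast (horizontal axis), of the members and of 7 pathway lists on the deficient and the adequate diet. Each point is a gene and filled points have adjusted p under 0.05. All lists hold genes on both sides of 0.

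Of 13 tested stress erythroid progenitor and hypoxia genes, 2 rose and 3 fell in deficient proerythroblasts, where 4.02% of all genes passed, and 0 passed in basophilic erythroblasts, or 1 when replicate 2 of both basophilic groups was left out. The median change in proerythroblasts was -0.08. Kit, the stem cell factor receptor, was 6.76, 6.88 and 7.12 in deficient and 8.97, 9.34 and 8.98 in adequate proerythroblasts, a change of -2.18 (adjusted p = 4.67e-05). Myb, a transcription factor of progenitors, was 7.09, 6.74 and 7.25 in deficient and 8.91, 9.25 and 9.09 in adequate proerythroblasts, a change of -2.06 (adjusted p = 2.55e-04). Both, like Eng, had no overlap between diets. Erfe, an erythroblast hormone that lowers hepcidin, was 9.52, 9.84 and 9.63 in deficient and 7.94, 7.94 and 7.05 in adequate proerythroblasts (change 2.02, adjusted p = 0.0347). Tfrc, the transferrin receptor, rose by 0.97 (adjusted p = 0.0347), and Egln1, an oxygen sensor that marks HIF for destruction, fell by 0.57 (adjusted p = 0.0297). Kit and Myb passed by diet in proerythroblasts under all 23 alternatives. The calls of Erfe and Tfrc were lost under median centring (1.94 and 0.89, adjusted p = 0.0697 and 0.105). They were also lost without adequate basophilic replicate 3 or any 1 of the 6 proerythroblast arrays, where Erfe was 1.72 to 2.17 and Tfrc 0.88 to 1.03. That of Egln1 was lost without adequate basophilic replicate 3, any 1 of the adequate proerythroblast arrays, or deficient proerythroblast replicate 2 or 3 (-0.64 to -0.45).

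With maturation this list had 1 gene higher and 5 lower on the deficient diet, and 3 higher and 6 lower on the adequate diet (medians -0.36 and -0.32). Without replicate 2 of both basophilic groups the deficient median was -0.04 and the adequate one -0.21. Hif1a, the oxygen-regulated transcription factor, fell by 0.99 and 1.09 on the deficient and adequate diets. Myb fell by 1.20 on the deficient and by 3.35 on the adequate diet, and Kit by 0.62 and 2.76. The interactions of Kit (2.13, adjusted p = 0.00511) and Myb (2.15, adjusted p = 0.00849) passed, as that of Eng did.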

How the data were processed

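From each of 12 samples, 3 per group, 5 ng of total RNA went onto a biotin-labelled Affymetrix array. The deposited values are log2 expression from Affymetrix Expression Console, per the submitters' processing notes. Its version, background correction and normalization are not given in the sources used here, and the array medians differed (5.13 to 5.55). Samples were grouped by title.

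Of 72688 features, 186 were controls, 31266 named exactly 1 gene, 1484 several and 39752 none. The brightest feature stood for each of the 441 genes with more than 1. A gene was tested when it exceeded 5.30 in at least 3 arrays. The 5 comparisons were fitted in limma 3.58.1 (R 4.3.3) with a mean per group over all 12 arrays, with Benjamini-Hochberg adjustment over 20133 genes and a threshold of 0.05. Python 3.11.15 prepared the tables, and the fit was tested on simulated data.

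All 10 members are described; from each list the up to 5 genes with the smallest adjusted p past the threshold could be named, and for the 3 members with the smallest adjusted p the 3 genes of highest r. The members and lists were chosen with earlier results of these data known. Correlations of same-numbered deviations were 0.18 to 0.782 between diets and -0.165 to 0.254 between stages. These ranges overlap, with 0.18 for the diet pair of proerythroblast replicate 2, so a pairing by number was not settled. There were 23 alternatives, which changed filters, scaling, blocks, variance model, array weights and feature rule or left out arrays. The number of arrays limits the precision.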

Additional observations from a re-analysis of the deposited data

Results flagged for a closer look

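Of the genes described, 3 had a diet effect that differed between stages by the interaction test in limma, which 0.303% of all tested genes passed. The call of Eng was the least stable under other settings: it passed in 12 of 22 alternatives and was lost under quantile normalization (adjusted p = 0.0589). The basophilic diet change minus the proerythroblast diet change was 1.66 for Eng (adjusted p = 0.0363), 2.13 for Kit (adjusted p = 0.00511) and 2.15 for Myb (adjusted p = 0.00849). In each case the deficient proerythroblast arrays lay below the adequate ones, while the basophilic arrays overlapped between diets.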

How the results depend on the processing

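Under the 23 alternatives the lower Eng in deficient proerythroblasts kept its direction and passed in all (log2 change -1.92 to -1.58, highest adjusted p 0.00867), as did the stage falls of Eng on the adequate diet and of Bmpr2 and Smad5 on both diets. By diet in proerythroblasts 2 members passed with the replicate block within each stage, the second being Id2, and 2 with array weights; leaving out 1 array gave 1 to 2. On the deficient diet 3 members passed by stage under the stricter filter, which left 5 members to test, and 2 when only the 6 deficient arrays were fitted; leaving out 1 array gave 3 to 7, against 5. On the adequate diet it gave 3 to 6, against 4. The interaction count was 0 under quantile normalization, and 0 to 1 without 1 array. Array weights stopped before full convergence. The replicate block changed no diet call but that of Id2. By stage it brought Eng and Id2 on the deficient diet and Id1 on the adequate diet past the threshold, and the counts of members stayed within 1.5 times. Over all genes, the diet effect in proerythroblasts had 810 calls as deposited, 1100 with the replicate block, 2234 with the block within each stage, 2416 from its own arrays, 3286 without both basophilic replicates 2 and 8010 with array weights. The basophilic diet effect had 4 calls as deposited, 50 under quantile normalization, 295 with the block within each stage, 289 without deficient basophilic replicate 2 and 0 under median centring; the interaction had 61, 23, 589, 282 and 57. The stage calls on the deficient diet were 11275 as deposited, 6354 under the stricter filter and 2919 when only its arrays were fitted; on the adequate diet they were 10912 as deposited, 6697 under the stricter filter and 6549 under quantile normalization.

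Changes that turned sign were small except for those of Id2, and none passed. Under quantile normalization these were Smad1 (-0.0019), Smad7 (-0.026) and Id1 (-0.051) by diet in proerythroblasts and Smad5 in the interaction (-0.024). Under median centring they were Smad1 (-0.023), Smad7 (-0.05) and Id1 (-0.067) by diet in proerythroblasts and Smad7 by stage on the adequate diet (-0.057). With array weights they were Id2 by stage on the adequate diet (0.22), Id3 by diet in proerythroblasts (0.0097) and in basophilic erythroblasts (-0.031), and the interactions of Id3 (-0.041), Smad1 (-0.021) and Smad5 (-0.0079). Without both basophilic replicates 2 they were the interactions of Smad1 (-0.015) and Smad7 (-0.0033). Leaving out 1 array at a time turned the sign by diet in proerythroblasts of Id1 (-0.022 to 0.063), Id3 (-0.10 to 0.067), Smad5 (-0.22 to 0.025) and Smad7 (-0.04 to 0.10). In basophilic erythroblasts it did so for Eng (-0.16 to 0.057), Id2 (-0.13 to 0.49), Id3 (-0.08 to 0.18) and Smad7 (-0.063 to 0.26), by stage on the adequate diet for Id2 (-0.81 to 0.35), and in the interaction for Id1 (-0.013 to 0.28), Id3 (-0.05 to 0.21), Smad1 (-0.033 to 0.21), Smad5 (-0.14 to 0.11) and Smad7 (-0.097 to 0.22). The causes were not tested.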
